A study of Equus caballus with 2 samples.

Results

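The enzymes that cross-link collagen were followed in equine endometrial fibroblasts as a set of 9 genes, picked by symbol from the 21426 genes of the count tables. They are the lysyl oxidase family (*LOX*, *LOXL1*, *LOXL2*, *LOXL3* and *LOXL4*), the lysyl hydroxylases (*PLOD1*, *PLOD2* and *PLOD3*) and transglutaminase 2 (*TGM2*). The fibroblasts came from mid-luteal endometria of 4 mares, healthy or with mild fibrotic alterations, and were cultured as passaged cells on collagen-coated hydrogels. Both groups spent the last 24 h, from 48 to 72 h of culture, in medium with 0.1% BSA in place of FBS. The control group received nothing else, and the TGF-β1 group received human recombinant TGF-β1 at 10 ng/ml, the comparison being made to learn how this profibrotic cytokine alters transcription. Cells of the mares were pooled, so that each group is 1 droplet library of 3′ mRNA tags counted as unique molecular identifiers (UMIs).

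Collagen is stabilised outside the cell by covalent bonds between lysine and hydroxylysine residues. The PLOD enzymes hydroxylate lysines inside the endoplasmic reticulum, and the copper-dependent lysyl oxidases later oxidise lysine and hydroxylysine side chains of secreted collagen and elastin, which then condense into cross-links. TGM2 joins glutamine to lysine side chains in a calcium-dependent reaction, with fibronectin among its substrates. Excess cross-linking makes fibrotic matrix stiff and resistant to degradation.

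The study's filter of 20000 or more UMIs, 3500 or more genes and less than 4% mitochondrial UMIs left 3865 of 4384 control barcodes and 4513 of 5124 TGF-β1 barcodes, called kept cells. Kept cells held a median of 50313 UMIs in the control and 43142 in the TGF-β1 library, and 2 barcodes occurred in both libraries. *VIM*, *COL1A1*, *COL1A2* and *COL3A1* had a UMI in 100% of kept cells at equal depth in each library (exact lower limit 99.9%), and *DCN* and *LUM* in at least 99.8%. *PDGFRA* was found in 53.7% of cells of the control and 25.7% after TGF-β1, and *PDGFRB* in 75.2% and 59.8%. Of the 8 fibroblast markers 4 were lower after TGF-β1, with *VIM* at 4399 and 2240 CPM, where CPM are UMIs per 1000000 UMIs of the library. *EPCAM*, *CDH1*, *CLDN4*, *PECAM1*, *CDH5*, *KDR*, *TIE1*, *PTPRC*, *CD3E* and *CD52* were each found in under 0.5% of cells, and *MUC1* and *VWF* in at most 1.42%. Of the other immune and smooth muscle or pericyte markers, *NOTCH3* (0.440% and 0.332%), *CSPG4* (2.35% and 2.22%) and *MCAM* (9.13% and 3.28%) were infrequent, while *CD68* had a share of 56.9% in the control library and 57.9% after TGF-β1, *CD14* of 24.7% and 18.1%, *DES* of 98.2% in each, *MYH11* of 38.5% and 27.6%, and *RGS5* of 61.2% and 68.2%. Of the 6 epithelial markers measured, 4 were lower in the TGF-β1 library. Their summed level was 134 CPM in the control and 12.3 CPM in the TGF-β1 library, and *KRT8* and *KRT7* made up nearly all of it. The study told the mares apart by genotype from the reads, which was not repeated here, so each group is 1 library with no replicate and no test. Every interval given is a 95% counting interval, and a difference between the libraries cannot be told apart from one between the mares' contributions or the preparations.

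All 9 genes passed the minimum mean of 1 CPM. The core of the difference lay in *LOX*, *LOXL2*, *LOXL4* and *PLOD2*, each of which was about 2-fold or more higher in the TGF-β1 library. *LOXL3*, *PLOD1* and *PLOD3* were higher by less than 1.5-fold, and *LOXL1* and *TGM2* were lower. CPM values of different genes are not compared with each other, since they are 3′ tag counts that depend on how well each 3′ end is annotated and captured.

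*LOX* (ENSECAG00000014771), the founding lysyl oxidase, stood at 68.6 CPM in the control and 179 CPM in the TGF-β1 library (14445 and 39302 UMIs). The log2 ratio was 1.38 with an interval of 1.35 to 1.41, or 2.61-fold, and it was the highest of the 9. By this ratio *LOX* had rank 230 among 12116 genes.

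*LOXL2* (ENSECAG00000025038), which also acts on type IV collagen, had 129 CPM in the control, 259.9 CPM after TGF-β1 and a ratio on the log2 scale of 1.01 (0.99 to 1.03). *LOXL4* (ENSECAG00000005573) had 31.2 and 63.0 CPM, with a log2 ratio of 1.01 (0.97 to 1.06). These genes therefore had nearly the same ratio of about 2.01-fold and 2.02-fold, and both counting intervals reached from just below to just above 2-fold.

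*LOXL1* (ENSECAG00000023405), the family member known for its part in elastic fibre maintenance, was the one lysyl oxidase with a lower level in the TGF-β1 library. It had 277 CPM in the control and 247 CPM after TGF-β1, making it 1.12-fold lower with a log2 ratio of −0.17 (−0.19 to −0.15). *LOXL3* (ENSECAG00000000373) had 7.79 and 9.02 CPM and a log2 ratio of 0.21 (0.12 to 0.31). The *LOXL3* ratio was 0.09 once cells with a *KRT7* or *KRT8* UMI were left out.

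*PLOD2* (ENSECAG00000009297), which hydroxylates lysines in the collagen telopeptides, had 173 CPM in the control and 344 CPM in the TGF-β1 library. Its log2 ratio was 0.99 (0.97 to 1.01), or 1.99-fold, just inside the 2-fold limit. *PLOD1* (ENSECAG00000022842), which acts on lysines of the triple helix, had 63.4 and 81.1 CPM with a log2 ratio of 0.35 (0.32 to 0.39). *PLOD3* (ENSECAG00000021913), which in addition glycosylates hydroxylysine, had 108 and 139 CPM with a log2 ratio of 0.36 (0.34 to 0.39). Thus the helical hydroxylases shared a ratio of 1.28-fold and *PLOD2* stood apart from them by more than their counting intervals.

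*TGM2* (ENSECAG00000006290) had 15.5 CPM in the control and 12.9 CPM after TGF-β1, making it 1.20-fold lower with a log2 ratio of −0.27 (−0.34 to −0.19). Of the 8 other transglutaminase genes listed, 7 were found and 0 of them reached a mean of 1 CPM.

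**Figure D1:**
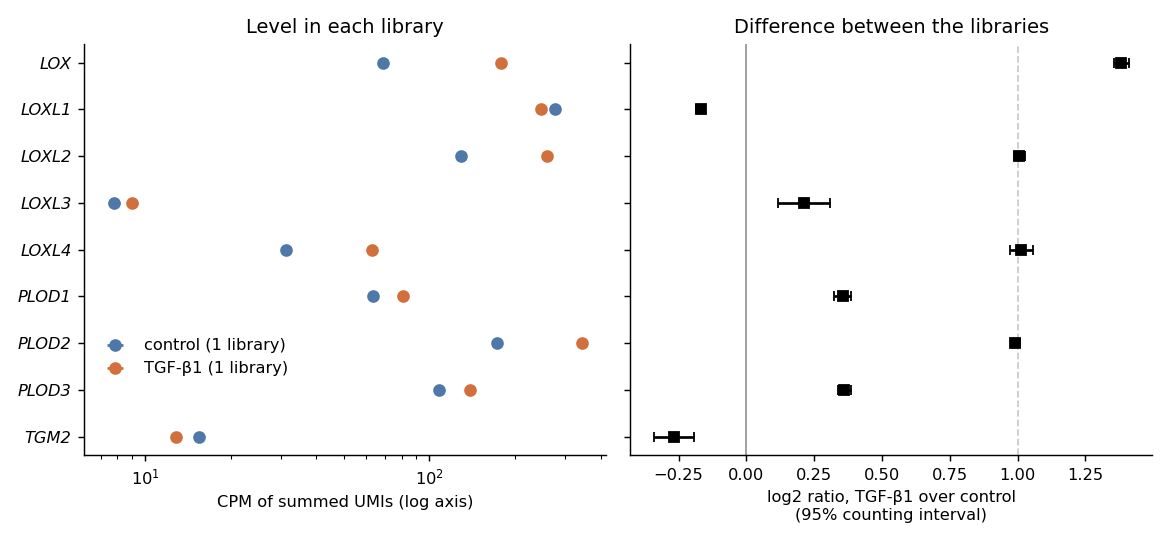
Left, level of each of the 9 genes in the control (blue) and TGF-β1 (orange) library as CPM of summed UMIs on a log axis. Right, log2 ratio of TGF-β1 over control with its 95% counting interval, where *LOX*, *LOXL2*, *LOXL4* and *PLOD2* lie at 0.99 to 1.38 and *LOXL1* and *TGM2* lie below 0.

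In all, 4 of the 9 genes were more than 1.5-fold higher and 0 were more than 1.5-fold lower. Among the 12116 genes that passed the 1 CPM minimum, 7.64% were more than 1.5-fold higher and 9.36% more than 1.5-fold lower. More than 2-fold higher were 3 genes (*LOX*, *LOXL2* and *LOXL4*) against 3.45% of all genes, and 0 were more than 2-fold lower against 3.46%. With cluster shares standardised, or without depth scaling, 1 gene (*LOX*) was more than 2-fold higher. Intervals lay above 0 for 7 of the 9, as for 39.5% of all genes, and below 0 for 2, as for 42.2%. Ranked by log2 ratio, the middle one of the 9 was *PLOD3* at 0.36, and the median over all genes was −0.01. The median of the enzymes was 0.20 without depth scaling and 0.68 over the 8 that reached 10 CPM.

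Because *LOXL1* was lower while *LOX*, *LOXL2* and *LOXL4* were higher, the make-up of the lysyl oxidase UMIs differed between the libraries. *LOXL1* supplied 53.9% of the family's UMIs in the control and 32.6% in the TGF-β1 library. *LOX* supplied 13.3% and 23.6%, and *LOXL2* 25.2% and 34.3%. These are shares of 3′ tags, not scaled for capture of each gene. The family summed to 514 CPM in the control and 757 CPM after TGF-β1, which is 1.47-fold higher. Within the lysyl hydroxylases, *PLOD2* supplied 50.2% of UMIs in the control and 61.0% after TGF-β1, while the share of *PLOD1* went from 18.4% to 14.4% and that of *PLOD3* from 31.4% to 24.6%. This family summed to 344 and 564 CPM, or 1.64-fold higher.

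The main collagen substrates were set beside the enzymes. The 11 fibrillar collagen genes together had 15221 CPM in the control and 18183 CPM after TGF-β1, which is 1.19-fold higher. Set against them, *LOX* had 4.51 UMIs per 1000 fibrillar collagen UMIs in the control and 9.84 after TGF-β1, and *PLOD2* had 11.4 and 18.9. *LOXL2* had 8.50 and 14.3, and *LOXL4* had 2.05 and 3.46. *PLOD1* (4.17 and 4.46), *PLOD3* (7.10 and 7.64) and *LOXL3* (0.512 and 0.496) stayed near the collagen, and *LOXL1* went from 18.2 to 13.6. Relative to the fibrillar collagen UMIs, *LOX*, *LOXL2*, *LOXL4* and *PLOD2* were therefore well above their control value and *LOXL1* and *TGM2* (1.02 and 0.709) below it.

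Since depth per cell differed between the libraries, cells were also compared after random thinning of each to 20000 UMIs. *LOX* then had a UMI in 64.9% of control cells (63.4 to 66.4) and 92.6% of TGF-β1 cells (91.8 to 93.3), against 87.9% and 98.2% without thinning. *LOXL4* had one in 41.4% (39.9 to 43.0) and 65.5% (64.0 to 66.8), against 68.9% and 85.8% without thinning. *LOXL2* was found in 85.2% and 96.9% of thinned cells (96.9% and 99.4% without thinning), and *PLOD2* in 90.5% and 98.6% (98.3% and 99.6% without thinning). At equal depth these 4 genes thus had more positive cells in the TGF-β1 library, and at full depth *LOXL2* and *PLOD2* were near saturation in both.

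Among the other genes, *PLOD1* had a UMI in 67.9% of thinned control cells and 75.9% of thinned TGF-β1 cells, and *PLOD3* in 84.6% and 91.3%, against 90.9% and 93.9% and 96.9% and 98.6% without thinning. *LOXL1* was found in nearly every cell (98.8% and 97.9%). *LOXL3* was found in 13.1% (12.0 to 14.2) and 14.8% (13.7 to 15.8), and without thinning in 28.8% and 28.9%. *TGM2* was found in 18.9% (17.7 to 20.2) and 15.5% (14.5 to 16.6), and without thinning in 31.2% and 27.0%. The *TGM2* difference of −3.40 percentage points was −2.29 in a second random thinning and −0.50 at 10000 UMIs per cell, so its size depends on the thinning. No cell type known to lack these genes was set apart in these libraries, so the part of free RNA in these shares was not measured.

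Per cell, the higher level of *LOX* was seen across the whole distribution. The median thinned cell held 1 *LOX* UMI in the control and 3 in the TGF-β1 library, the upper decile was 3 and 7, and 2.82% and 27.8% of cells held at least 5. Of all pairs of 1 TGF-β1 cell and 1 control cell, the TGF-β1 cell held more *LOX* UMIs in 73.0% and fewer in 14.2%. *PLOD2* had medians of 3 and 6, with more in the TGF-β1 cell in 73.8% of pairs, and *LOXL2* had medians of 2 and 5, with more in 70.5%. By contrast *LOXL1* had a median of 5 in each library, and the control cell held more in 50.8% of pairs against 39.0%.

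*TGM2* and *PLOD2* had the highest ratio of variance to mean among cells in both libraries. The ratio of standard deviation to mean was instead highest for *LOXL3* and *TGM2*. It was 2.77 in the control and 2.69 after TGF-β1 for *LOXL3*, 2.67 and 2.97 for *TGM2*, and 0.808 and 0.585 for *PLOD2*. The variance of the thinned counts was 2.26 times the mean for *TGM2* in the control and 2.27 times after TGF-β1, 2.18 and 2.29 times for *PLOD2*, and 1.74 and 2.07 times for *LOXL2*. For *TGM2*, a Poisson distribution of the same mean would place a UMI in 27.1% and 22.7% of cells, more than the 18.9% and 15.5% seen. For *PLOD1*, whose variance was 1.13 and 1.18 times the mean, the spread was close to that of counting alone.

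**Figure D2:**
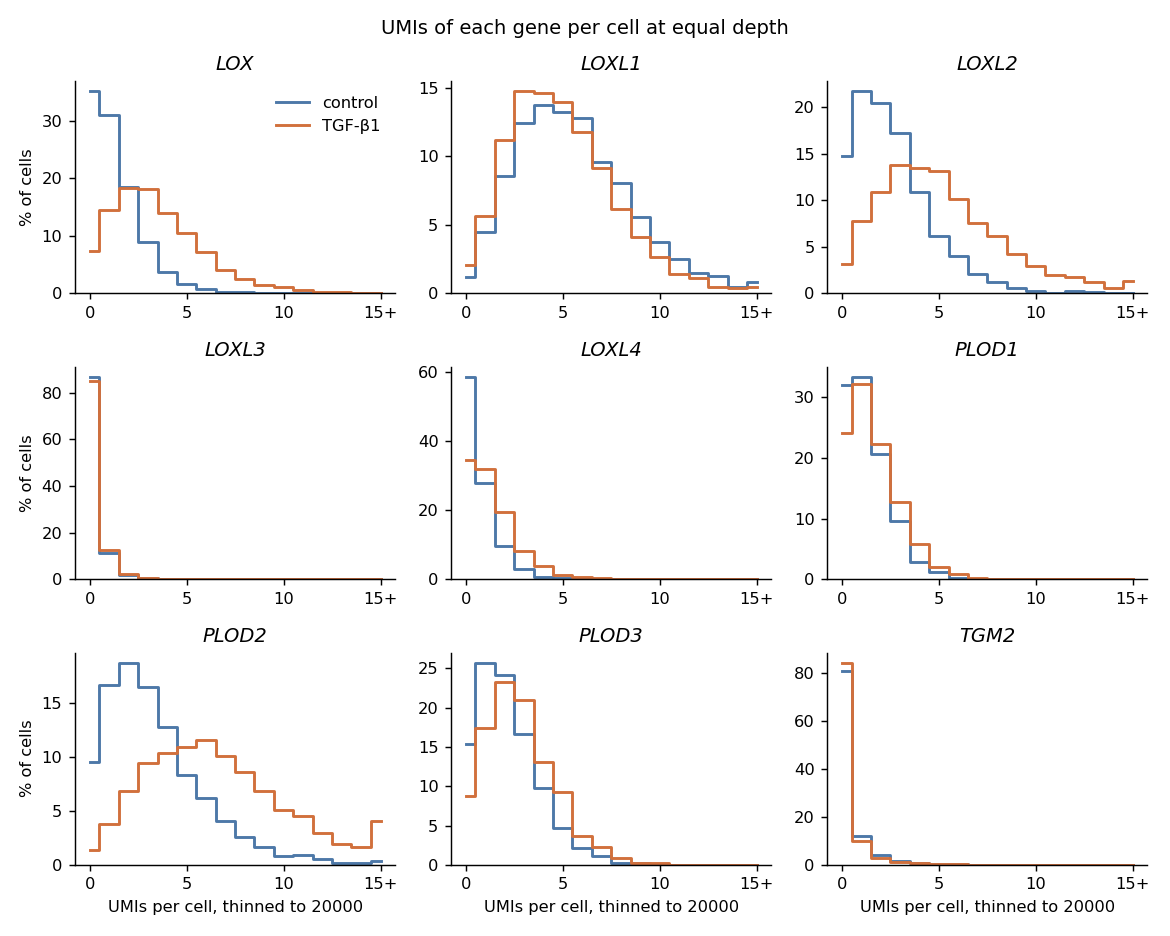
Share of cells (percent) by number of UMIs of each gene per cell after thinning every cell to 20000 UMIs, for the control (blue) and TGF-β1 (orange) library. The curves of *LOX*, *LOXL2* and *PLOD2* are shifted to the right in the TGF-β1 library, with medians of 3, 5 and 6 against 1, 2 and 3, and those of *LOXL1* nearly coincide.

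Summed over the 9 genes, a thinned control cell held a median of 17 UMIs (10th to 90th percentile 10 to 25) and a TGF-β1 cell 25 (17 to 37). The number of the 9 genes detected per cell averaged 5.65 in the control and 6.49 in the TGF-β1 library. At least 7 of the 9 were detected in 24.8% of control cells and 51.4% of TGF-β1 cells. All 9 were detected in 6 control cells (0.155%) and 35 TGF-β1 cells (0.776%), and 0 cells lacked all of them.

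For the 36 pairs of genes the share of cells with both was 0.883 to 1.10 times the product of the single shares in the control and 0.871 to 1.04 times in the TGF-β1 library. For genes found in most cells, such as *LOXL1* (98.8% and 97.9%) and *PLOD2* (90.5% and 98.6%), this ratio cannot move far from 1. Its closeness to 1 therefore says little about dependence in such pairs. *LOX*, *LOXL2*, *LOXL4* and *PLOD2*, a set picked after their values were seen, were detected together in 841 control cells (21.8%, 20.5 to 23.1) and 2633 TGF-β1 cells (58.3%, 56.9 to 59.8), where the product of their shares was 20.7% and 57.9%.

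Correlations across cells within a library were weak for every pair of the 9. Pearson's r of log counts, over 3865 and 4513 thinned cells that share a preparation, ran from −0.07 to 0.14 in the control and from −0.04 to 0.20 in the TGF-β1 library. The highest was *LOX* with *PLOD2*, at 0.14 and 0.20. *PLOD2* was found in 91.6% of control cells with *LOX* and 88.4% of those without, and in 98.9% and 95.8% of TGF-β1 cells. *LOXL2* with *PLOD2* gave 0.11 and 0.15, and *LOXL1* with *LOXL2* gave 0.02 and 0.15.

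Outside the set, 7657 genes were ranked by r with each enzyme but *LOXL3*, which was under the 10 CPM minimum, and the number with r of at least 0.2 in both libraries was 12 for *PLOD2*, 4 for *LOX*, 2 for *LOXL2*, 1 for *LOXL1* and 0 for *LOXL4*, *PLOD1*, *PLOD3* and *TGM2*. The highest for *LOX* were *CALD1*, an actin-binding protein of contractile cells (0.23 and 0.24), *C1QTNF3* (0.24 and 0.21) and the unnamed ENSECAG00000050273 (0.21 and 0.22). The highest for *PLOD2* were *CALD1* (0.25 and 0.26) and the same unnamed gene (0.27 and 0.29), along with *VCAN*, a large matrix proteoglycan (0.25 and 0.25). *LOXL2* had *FN1*, fibronectin (0.24 and 0.24), and *COL5A1*, a fibril-initiating collagen (0.20 and 0.25). *LOXL1* had *S100A4*, a calcium-binding protein (0.28 and 0.21).

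**Figure D3:**
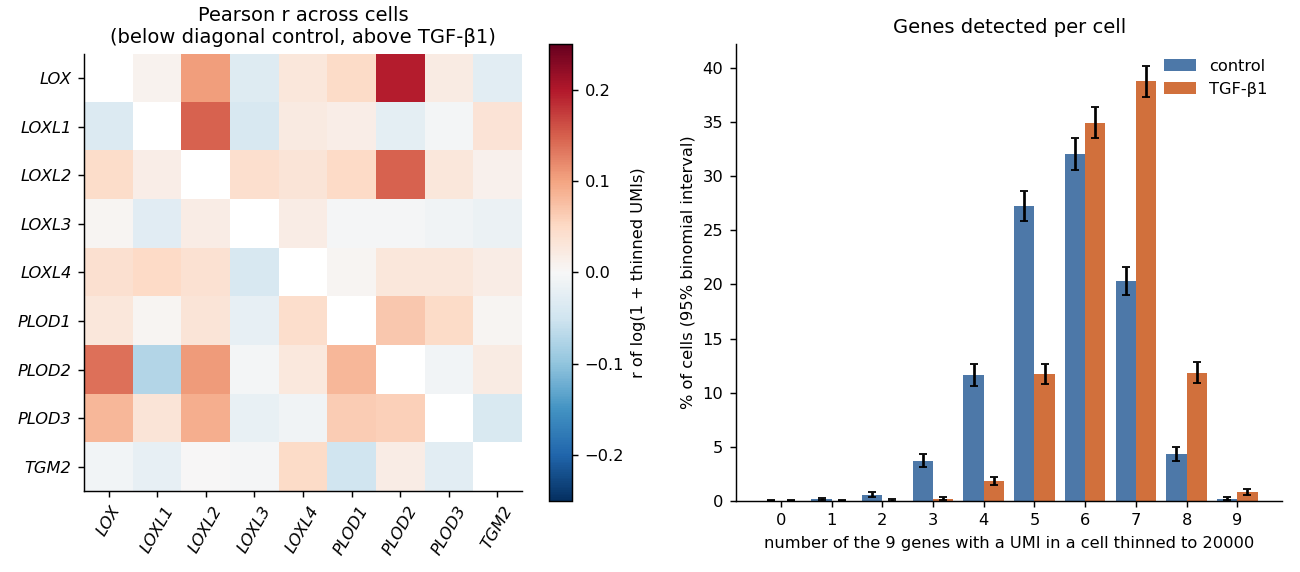
Left, Pearson r across cells for each pair of the 9 genes, with control below and TGF-β1 above the diagonal, from −0.07 to 0.20. Right, percent of cells (95% exact binomial interval) by the number of the 9 genes with a UMI at 20000 UMIs per cell, where the TGF-β1 library (orange) lies further right than the control (blue), averaging 6.49 against 5.65.

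The cells fell into 8 clusters, rebuilt without the 9 genes so that their levels did not shape them. These clusters are not the study's own. Cluster 6 was cycling-like, with 9 cycling markers at more than 2 times their level in the remaining cells, and the others are given by number and leading genes. *LOX*, *LOXL2*, *LOXL4* and *PLOD2* were more than 1.5-fold higher in the TGF-β1 cells of all 8 clusters, as were 2.66% of the 11043 genes with enough UMIs in each. This rests on clusters integrated over the libraries. Without integration 8 of 9 clusters held under 25 cells of one library. Of the clusters that then gave a ratio, *LOXL4* was higher in 100%, *LOX* in 85.7%, *PLOD2* in 55.6% and *LOXL2* in 44.4%. *LOX* was the 1 gene of the 9 more than 2-fold higher in all 8 (1.07% of genes), with log2 ratios from 1.22 in cluster 1 to 1.67 in cluster 5. Together with *PLOD1* and *PLOD3*, 6 of the 9 were higher in all 8 clusters, as were 19.3% of genes, although the interval reached below 0 for *PLOD1* in cluster 3 (0.07, −0.01 to 0.14) and *PLOD3* in cluster 6 (0.08, −0.03 to 0.20). Without integration *PLOD1* was higher in 71.4% and *PLOD3* in 50.0% of clusters.

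The size of the difference varied between clusters for some genes. *LOXL4* had its lowest log2 ratio, 0.66 (0.55 to 0.76), in cluster 3, which was led by *SPP1*, *KRT7* and *KRT8*, and its highest, 1.77 (1.45 to 2.09), in cluster 7. *LOXL2* was also lowest in cluster 3, at 0.75 (0.69 to 0.80), and *PLOD1* there was 77.1 CPM in the control and 80.7 CPM after TGF-β1. For *PLOD2* the range was narrow, 0.83 to 1.13. *LOXL1* was lower in 7 clusters, in 6 of them with an interval below 0, and higher in cluster 7, from 218 to 255 CPM. Without integration it was higher in 33.3% of clusters.

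*LOXL3* and *TGM2* differed most between clusters. *LOXL3* reached 25.3 CPM (control) and 42.3 CPM (TGF-β1) in cluster 7, whose leading genes included *CA4*, *GDF15* and *CDKN1A*, against 4.88 to 9.42 CPM and 6.65 to 10.9 CPM in the other clusters. Cluster 7 held 106 control and 56 TGF-β1 cells. *TGM2* peaked in cluster 4, led by *COL4A3* and *NLGN1*, with 32.4 CPM in the control and 25.3 CPM after TGF-β1. Its lowest levels were 7.96 CPM in cluster 6 of the control and 6.16 CPM in cluster 1 of the TGF-β1 library. The direction of *TGM2* also varied, being lower in 6 clusters and higher in cluster 2 (log2 ratio 0.37, 0.19 to 0.54) and cluster 6 (0.24, with an interval of −0.21 to 0.70).

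**Figure D4:**
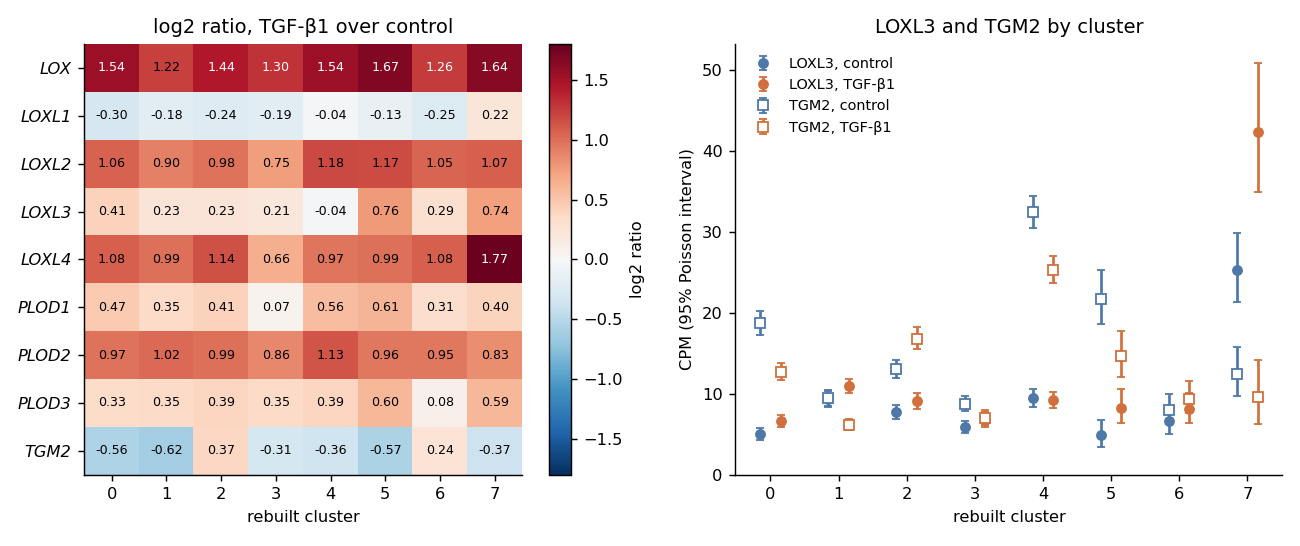
Left, log2 ratio of TGF-β1 over control for each of the 9 genes in each of 8 rebuilt clusters, red higher and blue lower, with *LOX* at 1.22 to 1.67. Right, CPM of *LOXL3* (filled circles) and *TGM2* (open squares) by cluster with 95% Poisson intervals, where *LOXL3* is highest in cluster 7 and *TGM2* in cluster 4 in both libraries.

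Within a library, the enzymes also differed between cells with and without a few marker genes. The levels in this and the next paragraph are means per cell at 20000 UMIs, scaled to 1000000, which weight every cell equally and so differ from the CPM of summed UMIs above. Cells with a UMI of *KRT8*, a keratin of simple epithelia, made up 25.5% of the control and 3.32% of the TGF-β1 library. *TGM2* was higher in them, at 18.7 against 14.8 CPM in the control and 23.3 against 12.5 CPM after TGF-β1, and *LOXL3* was lower, at 6.24 against 8.08 and 5.33 against 9.13 CPM. After TGF-β1 the *LOXL3* value rests on 150 cells with *KRT8*, with a log2 ratio to the other cells of −0.78 (−1.59 to −0.07). With all cells holding *KRT7* or *KRT8* left out (40.5% of the control library, 14.0% of the other), the log2 ratios of summed UMIs for *LOX* (1.39), *LOXL2* (0.97), *LOXL4* (1.05), *PLOD2* (0.98), *LOXL1* (−0.17) and *TGM2* (−0.27) were close to those over all cells, with *LOXL2* then just under 2-fold. This check was added after the data were seen.

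*LOX* and *LOXL4* were lower in the 180 control cells with *VCAM1*, a leukocyte adhesion molecule, than in the other control cells (*LOX* 50.6 against 63.4 CPM, *LOXL4* 19.7 against 30.5 CPM). *PLOD2* was also lower in them (142 against 168 CPM), while *LOXL1* (304 against 278 CPM) and *TGM2* (20.6 against 15.6 CPM) were higher. After TGF-β1 there was 1 cell with *VCAM1*. In cells with *AREG*, an EGF receptor ligand, *LOX* was higher, at 90.3 against 61.6 CPM in the control and 191 against 166 CPM after TGF-β1. *PLOD3* was also higher in *AREG* cells of the control (127 against 104 CPM). *TGM2* was lower in *AREG* cells of the TGF-β1 library (9.37 against 13.9 CPM). In TGF-β1 cells with *IGFBP3*, *LOXL2* had 287 CPM against 232 and *PLOD2* 366 against 313. *TGM2* was lower in *IGFBP3* cells of the control (8.84 against 16.2 CPM) and slightly higher in those of the TGF-β1 library (14.3 against 12.0 CPM). Cells with at least 3 cycling markers were 2.04% of the control and 1.66% of the TGF-β1 library, and all 9 cycling markers measured were lower after TGF-β1. Without these cells the log2 ratio of summed UMIs for *LOX* was 1.38 and for *PLOD2* 0.99.

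The other genes of the pathway are counted here beside all genes, of which 48.7% were higher. Of 10 measured chaperones and lysyl hydroxylase partners, 9 were higher, 0 of them by more than 1.5-fold, with a median log2 ratio of 0.34. *FKBP10*, which aids telopeptide hydroxylation by PLOD2, had 107 CPM in the control and 130.3 CPM after TGF-β1, and *SERPINH1*, the collagen chaperone HSP47, 1783 and 2044 CPM. *P3H3* (15.6 and 21.1 CPM) and *P3H4* (129 and 179.7 CPM), which form a complex with PLOD1, had log2 ratios of 0.44 and 0.48, a little above that of *PLOD1* itself. *HSP90B1* (0.54) and *FKBP14* (0.47) were similar. All 7 prolyl hydroxylation genes were higher, among them *P4HA3* (0.81), *P3H1* (0.76) and *P4HA2* (0.33).

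Among 9 genes of procollagen cleavage and lysyl oxidase activation, 7 were higher and 4 of these by more than 1.5-fold (7.64% of all genes). *TLL1*, a tolloid-like protease that removes procollagen propeptides, had 4.98 CPM in the control and 43.8 CPM after TGF-β1, or 8.79-fold higher, a larger ratio than that of any of the 9 enzymes. *ADAM19* (0.92) and *PCOLCE2*, a procollagen proteinase enhancer (0.79), followed. *PCOLCE*, an enhancer of the same kind that was named after its value was seen, was lower, at 352 CPM in the control and 224 CPM after TGF-β1. Of 9 genes of copper supply, which the lysyl oxidases need, 4 were measured at this level. The importer *SLC31A1* was higher (log2 ratio 0.55), the copper pump *ATP7A* (−0.16) and the chaperone *CCS* (−0.37) were lower, and the interval of the other one, *SLC31A2*, included 0.

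Of 9 fibrillar collagens measured, 8 were higher, with a median log2 ratio of 0.25. *COL1A1* had 5608 and 6376 CPM, *COL1A2* 4256 and 5084 CPM, and *COL3A1* 4456 and 5583 CPM, and *COL5A1* had a log2 ratio of 0.57. *ELN*, elastin, a substrate of *LOX* and *LOXL1*, had 2.99 and 6.92 CPM, and the 15 elastic fibre genes were divided, with 9 higher and 6 lower. *LTBP1* (1.40), which tethers latent TGF-β, and *MFAP4* (1.43) were higher, and *EFEMP1*, fibulin-3, was lower (−2.08). Of 16 matrix partners, 13 were higher, with a median of 0.68. More than 1.5-fold higher were 9 (7.64% of all genes), and more than 1.5-fold lower were 2 (9.36% of all genes). The last were *TNXB* and *FMOD*, named after their values were seen. The higher ones included *FN1*, the substrate of TGM2, at 1934 CPM in the control and 6087 CPM after TGF-β1, although *TGM2* itself was lower, and *TGFBI* (2.32) and *ASPN* (1.89).

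**Figure D5:**
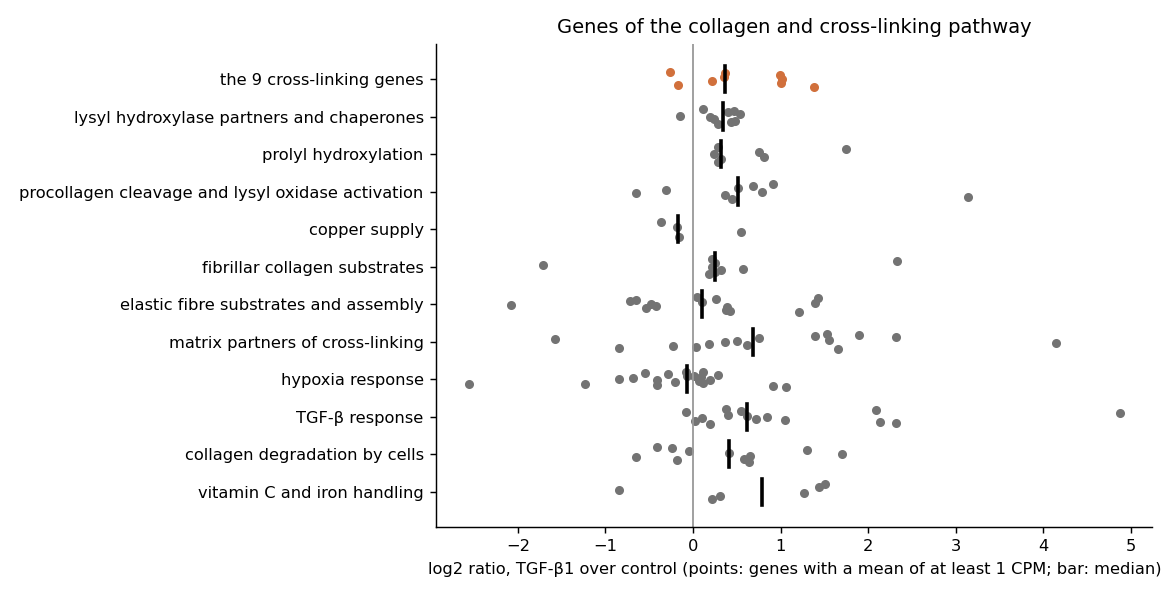
Log2 ratio of TGF-β1 over control for the genes of each list that passed the 1 CPM minimum (points, spread vertically for legibility) and the median of the list (bar). The 9 cross-linking genes (orange) have a median of 0.36, the fibrillar collagens 0.25, copper supply −0.17 and the matrix partners 0.68. Over the 8 cross-linking genes at 10 CPM or more, a minimum not used for the lists, the median was 0.68. That value lies between *PLOD3* (0.36) and *PLOD2* (0.99).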

How the data were processed

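Single cell libraries of the control and TGF-β1 groups were used, and cells treated with MFGE8 are not analysed here. The deposited counts are raw UMI counts per gene and cell barcode, which the authors made with Cell Ranger against EquCab3.0 and its Ensembl annotation. The methods name version 7.1.0 and the file header 8.0.1. The authors' cell filter was not yet applied in them and was repeated here. The authors also removed doublets by genotype from the reads, which was not repeated. Removing cells above the 98th percentile of UMIs was an alternative.

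UMIs of kept cells (210497250 in the control and 219731144 in the TGF-β1 library) were summed and scaled to CPM. Log2 ratios divide the TGF-β1 by the control value, with no pseudocount added. Intervals (95%) are exact binomial or Poisson and cover counting error only. The depth makes them narrow and they hold no difference between mares or cultures. Each library pools cells of 4 mares, which were not assigned to mares here. Clusters were made in Seurat 5.3.0 (R 4.3.3) from 2000 variable genes without the 9 enzymes, with canonical correlation integration, 30 dimensions and resolution 0.5. Other steps used Python 3.11.15, numpy 2.4.6, scipy 1.17.1, pandas 2.3.3 and matplotlib 3.10.9, and the scripts were tested on simulated data.

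Named are the 9 enzymes, the 3 genes with the largest absolute log2 ratio and a mean of at least 10 CPM in each of 12 lists, the substrates *COL1A1*, *COL1A2*, *COL3A1*, *ELN* and *FN1*, the partners *FKBP10*, *SERPINH1*, *P3H3* and *P3H4*, and, for each enzyme with a mean of at least 10 CPM, its 3 best correlates with r of at least 0.2 in both libraries. The enzymes and lists were chosen with earlier results of these data known. By symbol, *COLGALT1*, *ATOX1*, *COX17*, *MT2A*, *MT1A*, *MFAP5*, *TGM4* and *FTL* of the lists and the markers *KRT18*, *KRT19* and *MKI67* were not found. *LOXL3*, *LOXL4* and *PLOD3* overlap *HTRA2*, *R3HCC1L* and *ZNHIT1* in RefSeq, and how the counting used strand is not given in the sources used here, so reads in the overlaps are uncertain. Sequences were not analysed here.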

Additional observations from a re-analysis of the deposited data

How the results depend on the processing

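All 9 genes kept the direction of their log2 ratio under each of 11 alternatives to the cell filter, scaling, removed cells and cluster weights, with *LOX* between 1.22 and 1.43 and *LOXL3*, the least certain, between 0.05 and 0.27. The number more than 1.5-fold higher was 4 under every one, while the number more than 2-fold higher ranged from 1 to 4 against 3. It was 1 (*LOX*) with mean UMIs per cell and no depth scaling. It was also 1 (*LOX*) with each cluster weighted, in both libraries, by its share of all kept cells. The number was 2 (*LOX* and *LOXL4*) with median-of-ratios factors or without *KRT7* or *KRT8* cells, and 4 with the mean of per-cell CPM. Their median log2 ratio, 0.36, was 0.40 with the mean of per-cell CPM, 0.20 without depth scaling (where the median of all genes was −0.17), 0.39 without *KRT7* or *KRT8* cells (chosen after seeing the data) and 0.68 over the 8 genes that reached 10 CPM on average. The median difference in the share of cells, 8.05 percentage points, was 11.7 at 10000 UMIs per cell and 1.73 without thinning. At 10000 UMIs per cell, the wide interval of the joint share left out the product for 1 pair of genes against 0. Without integration, 63.8% of gene and cluster combinations were higher in the TGF-β1 library against 80.6%. The cause of these changes was not tested. No paired analysis was possible because the pooled cells were not assigned to mares here. Depth limits *LOXL3* and *TGM2* most, and nothing here measures the spread between cultures.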

Other observations

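Further gene groups that bear on the hydroxylases were described in the same libraries. The lysyl and prolyl hydroxylases need iron and vitamin C, and of 6 genes of iron and vitamin C handling 5 were higher after TGF-β1, and the median log2 ratio was 0.79. The other gene, *FTH1*, the ferritin heavy chain, was lower, at 1819 and 1009.8 CPM. *TFRC*, the transferrin receptor, had 31.6 CPM in the control and 75.9 CPM after TGF-β1, *SLC11A2*, an iron importer, 12.3 and 33.2 CPM, and *SLC40A1*, the iron exporter ferroportin, 16.3 and 46.5 CPM. Of 20 hypoxia response genes 9 were higher and 11 lower, with a median of −0.07, beside 48.7% higher among all genes. Within it *VEGFA* (1.06) and the glucose transporter *SLC2A1* (0.91) were higher and *ADM*, adrenomedullin, was lower, from 195 to 33.1 CPM. Of 15 established TGF-β response genes, 14 were higher, with a median of 0.62, among them *PMEPA1* (29.0 and 127 CPM) and *IGFBP3* (3.69 and 108 CPM).

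Genes of collagen breakdown and its inhibitors were divided, with 6 of 11 higher, beside 48.7% of all genes, and a median of 0.41. The collagen uptake receptor *MRC2* (0.64), the lysosomal protease *CTSV* (0.65) and *TIMP1*, an inhibitor of matrix metalloproteinases (3196 and 7898 CPM), were higher. The proteases *MMP1* (2.27 and 7.38 CPM), *MMP2* (0.41) and *CTSB* (0.58) were higher too. *TIMP2* (759.8 and 646 CPM), *TIMP3* (−0.41), *CTSL* (−0.65, at a mean of 1.76 CPM) and *CTSK* (−0.18) were lower, and *MMP14* was at −0.04 with an interval that included 0. *FTH1* and the genes of this paragraph other than *MRC2*, *CTSV* and *TIMP1* were named after their values were seen. These are values of 1 library per group, without a test.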
